A study of Canis lupus familiaris with 12 samples.

Results

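The respiratory chain and ATP synthase genes are the nuclear genes for the protein subunits of complexes I to IV of the inner mitochondrial membrane, the electron carrier cytochrome c, and the ATP synthase, also called complex V. Members were chosen by name alone, as every probe set whose single annotated gene symbol began with NDUF and a subunit letter and number, with UQCR, with COX4 to COX8 or with ATP5, or was SDHA to SDHD, CYC1 or CYCS. This gave 121 probe sets, which measured 64 genes of the 15115 genes on the array. By complex there were 32 genes of complex I, 4 of complex II, 9 of complex III with cytochrome c, 9 of complex IV and 10 of the ATP synthase. NDUFA4 and its relative NDUFA4L2 were counted with complex IV, where the NDUFA4 protein has been placed since it was first named after complex I.

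Expression was compared between 6 arrays of cells grown as cysts in 3-dimensional collagen culture (3D) and 6 arrays of cells grown as flat sheets in 2-dimensional collagen culture (2D), the control condition. All cells were MDCK II tet-off cells, a form of the Madin-Darby canine kidney line, an established epithelial line from dog kidney tubule that carries a tetracycline-regulated activator. Both cultures used type I collagen and medium with serum, antibiotics and G418, and both were collected on day 8 by digesting the gels with collagenase. RNA of 4 samples was pooled for each array because yields were low. Arrays are labelled as biological replicates, with no word on which cultures went into which pool. The p-values therefore reflect only how these pools vary, which may be partly technical. One line was used throughout, and a difference in RNA per cell cannot be told apart from a difference in the mix of cells.

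Complex I takes electrons from NADH and complex II takes them from succinate, and both pass them to coenzyme Q. Complex III hands them on to cytochrome c, and complex IV delivers them to oxygen. Complexes I, III and IV pump protons, and the ATP synthase uses the returning protons to make ATP. In kidney tubules this chain supplies most of the energy for salt and solute transport. Some complex subunits are encoded by the mitochondrial genome, and none of those was measured by a probe set naming 1 gene. The roles given below are known from the human and bovine enzymes.

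Levels are log2(intensity + 1), and a fold change is the 3D mean minus the 2D mean on that scale, where a value of 1 would be a doubling. A gene rose or fell where limma's moderated test gave a Benjamini-Hochberg adjusted p under 0.05 over all 42924 probe sets tested. For a gene with several probe sets, the brightest of them, averaged across the 12 arrays, stood for it. Levels of different genes come from different probes and are not set against each other here.

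Most of these genes differed little between cysts and flat sheets, and more of them fell than rose in 3D. Of the 64 genes, 5 rose (7.81%), 19 fell (29.7%) and 40 did not pass. Over all 15115 genes 19.8% rose and 22.9% fell, and among the 2411 genes with a mean level above 10, as 59 of the 64 have, 32.4% rose and 26.9% fell. The count that fell depended on the scaling. Under quantile normalization 30 members fell (46.9%) and 4 rose (6.25%), against 34.3% and 27.5% of the genes with a mean level above 10. By probe set, 10 of 121 rose (8.26%) and 40 fell (33.1%), against 16.7% and 22% of all probe sets.

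The changes were small in size. The median fold change of the 64 genes was -0.07, against -0.05 over all genes and 0.02 over genes with a mean level above 10, and 44 of the 64 lay below zero. Under quantile normalization the members' median was -0.11, with 51 below zero, and with each array centred on its median it was -0.05, with 42 below zero. The largest change was 1.36-fold, the fall of NDUFS8. Without regard to sign, the median change was 0.0866, against 0.1397 for all genes and 0.1668 for bright genes. For 55 of the 64 members (85.9%) the 95% interval of the change lay within 1.25-fold in either direction, as it did for 62.4% of all genes and 61.3% of bright genes. The 6 values in 3D all lay above the 6 in 2D for 4 members and all below them for 15, where 13.2% of all genes lay wholly above and 9.49% wholly below. Among genes with a mean level above 10 these shares were 26.8% and 18.5%.

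**Figure D1:**
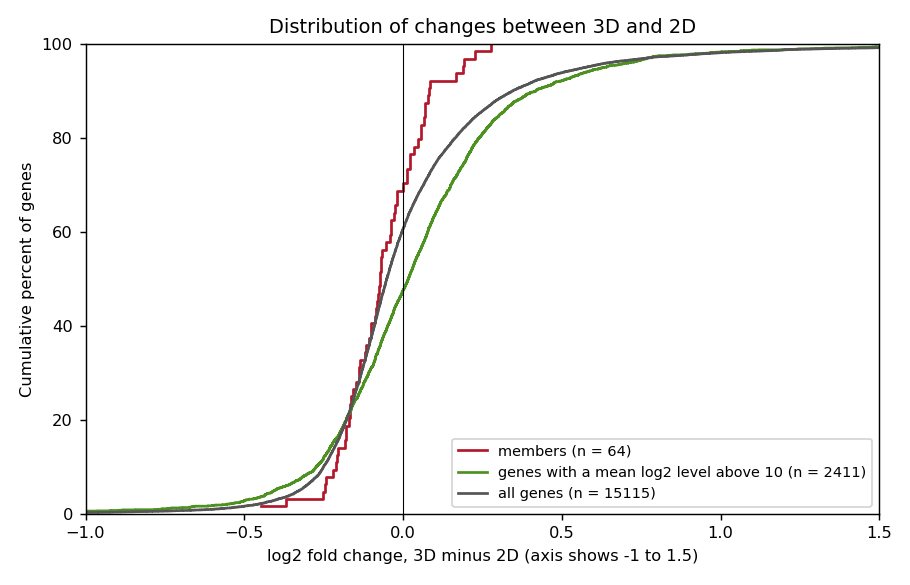
Cumulative percent of genes (vertical axis) against the log2 fold change, 3D minus 2D (horizontal axis, shown from -1 to 1.5), for the 64 members, the 2411 genes with a mean level above 10 and all 15115 genes. The members' curve is steeper than both others, reaching from -0.45 to 0.28, with its median at -0.07.

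A sign of RNA integrity moved with the culture and stands beside every result below. It was the log2 ratio of 5' to 3' signal at control probe sets for actin and GAPDH. RNA integrity itself was not measured here. The ratio averaged -0.54 ± 0.17 over the 6 arrays of 3D and -0.92 ± 0.14 over the 6 arrays of 2D (mean ± SD). The difference was 0.37, with a two-sided exact permutation p of 0.00866. The mean log2 intensity was 7.14 on all 12 arrays as deposited, so a change common to all RNA cannot be seen. With the ratio as a covariate, 1 member rose (1.56%) and 6 fell (9.38%), against 12.6% and 8.33% of all genes and 21.9% and 13.2% of those with a mean level above 10 in the same fit. The standard errors of all 64 members were larger in that fit, so fold changes from it are given below beside each lost call. The part of RNA integrity in the calls was not tested. Arrays correlated at 0.9926 or more within a group and at 0.9876 or less between groups, and no pair of columns was identical.

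Markers of other cells were looked at as well. All 13 measured epithelial markers lay above background, the 95th percentile of 59 control probe sets without a dog match, on every array. Their mean level was 10.50 to 10.73 in 3D and 10.46 to 10.54 in 2D. The mean level of 10 fibroblast markers was 6.05 to 6.20 in 3D and 6.22 to 6.37 in 2D, and that of 10 leukocyte markers was 5.93 to 6.08 in 3D and 6.01 to 6.15 in 2D. For 8 endothelial markers it was 6.22 to 6.34 in 3D and 6.36 to 6.45 in 2D, against a background of 5.66 ± 0.04 on the 6 arrays of 3D and 5.76 ± 0.09 on the 6 arrays of 2D (mean ± SD). At or below background on every array were the fibroblast marker COL1A2, the leukocyte markers CD79A and LYZ and the endothelial marker PECAM1, while 5 fibroblast, 4 leukocyte and 6 endothelial markers were above it on every array. Of the epithelial markers 5 rose and 3 fell, of the fibroblast markers 0 rose and 3 fell, of the leukocyte markers 1 rose and 3 fell, and of the endothelial markers 0 rose and 2 fell. The fibroblast marker COL5A1 lay above background on all 12 arrays, with a mean of 8.30 in 3D and 8.82 in 2D, and fell by 0.52 (adjusted p = 1.30e-04). The leukocyte marker CD14, with a mean of 7.28 in 3D and 6.85 in 2D, rose by 0.43 (adjusted p = 3.85e-05). Their part in the members' changes was not tested.

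Averaged over the 64 members, the level of an array ran from 11.39 to 11.44 in 3D with a median of 11.41, and from 11.44 to 11.52 in 2D with a median of 11.48. The highest 3D array, replicate 6, lay just under the lowest 2D array, replicate 1, at 11.4431 and 11.444. The difference of the means was -0.06. Array 3D replicate 2 had an RNA control ratio of -0.88, inside the 2D range of -1.09 to -0.75, and a mean member level of 11.41. A single array cannot tell the ratio apart from the culture, and the part of the ratio was not tested.

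**Figure D2:**
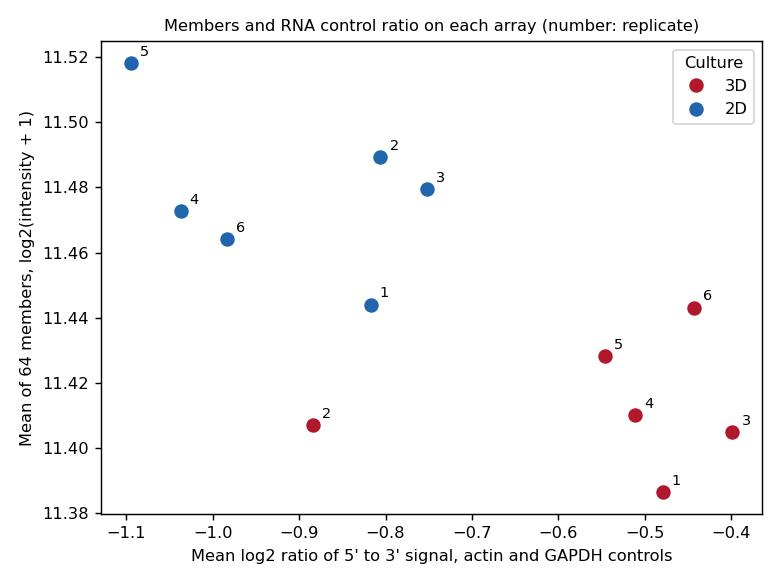
Mean level of the 64 members on each array (vertical axis, log2(intensity + 1)) against the mean log2 ratio of 5' to 3' signal at the actin and GAPDH controls (horizontal axis), with the replicate number beside each point. The 3D arrays lie lower, between 11.39 and 11.44, and mostly further right than the 2D arrays, between 11.44 and 11.52. The ratio of 3D replicate 2 lies inside the 2D range.

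Of 32 genes of complex I, 3 rose (9.38%) and 12 fell (37.5%), and of 4 genes of complex II, 0 rose and 1 fell (25%). In complex III with cytochrome c, 1 of 9 rose (11.1%) and 2 fell (22.2%), and in complex IV 0 of 9 rose and 3 fell (33.3%). In the ATP synthase 1 of 10 rose (10%) and 1 fell (10%). Over all genes 19.8% rose and 22.9% fell, and over genes with a mean level above 10, 32.4% and 26.9%. Complexes II to V hold few genes, so their shares are coarse. The median fold changes were -0.08 for complex I, -0.05 for complex II, -0.04 for complex III, -0.14 for complex IV and -0.05 for the ATP synthase.

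**Figure D3:**
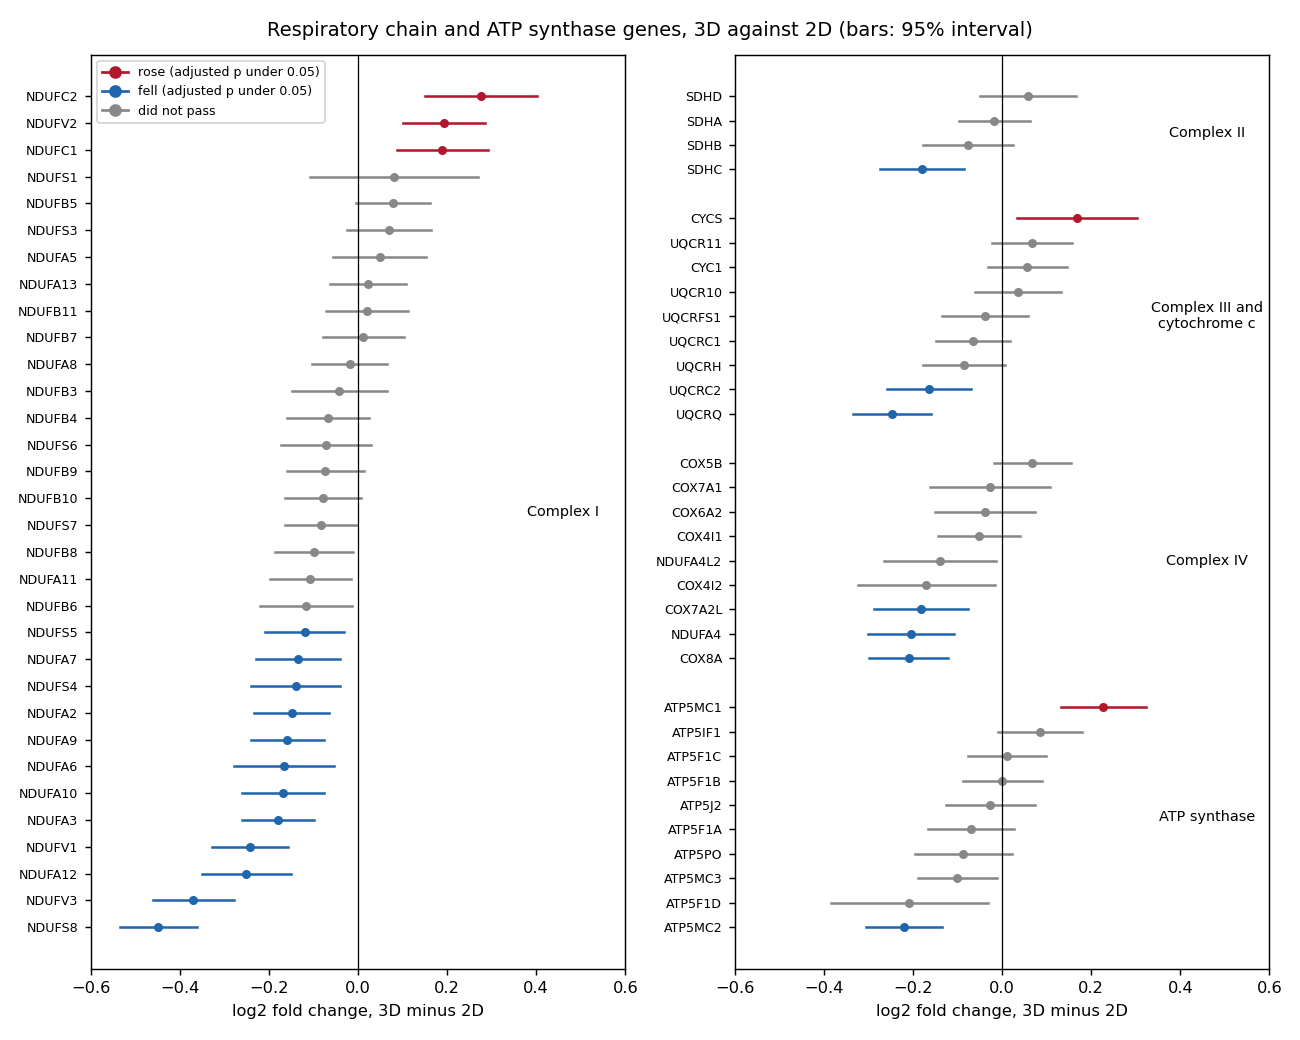
Log2 fold change, 3D minus 2D (horizontal axis), of each of the 64 genes, with its 95% interval as a bar, complex I on the left and the other complexes on the right. Red marks the 5 genes that rose, blue the 19 that fell and grey the 40 that did not pass. NDUFS8 lies lowest at -0.45 and NDUFC2 highest at 0.28.

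Within complex I the core subunits, among them those that carry the flavin and the iron-sulfur clusters, moved in both directions. NDUFS8, a core subunit that holds iron-sulfur clusters on the way to coenzyme Q, had log2 levels of 11.29, 11.34 and 11.40 in 3D (lowest, median and highest of 6) and 11.76, 11.79 and 11.84 in 2D. All 6 cyst arrays lay well below all 6 flat-sheet arrays, and no other member differed by more. NDUFS8 fell by 26.7% (log2 fold change -0.45, SE 0.04, adjusted p = 2.72e-07), as measured by its 1 probe set, which can hybridise with related sequences.

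NDUFV1, the core subunit that binds NADH and the flavin, had levels of 11.27, 11.38 and 11.41 in 3D and 11.60, 11.61 and 11.62 in 2D. The 2D values were nearly identical and the 3D values all lower. NDUFV1 fell by 15.5% (log2 fold change -0.24, SE 0.04, adjusted p = 1.86e-04). Its second probe set fell too, with a fold change of -0.22. NDUFV2, its iron-sulfur partner in the same NADH-oxidising module, went the other way.

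NDUFV2 had levels of 11.93, 12.02 and 12.06 in 3D and 11.75, 11.81 and 11.87 in 2D. The groups did not overlap, and NDUFV2 rose by 14.3% (log2 fold change 0.19, SE 0.04, adjusted p = 0.00237). NDUFV3, an accessory protein of that module, had levels of 9.24, 9.28 and 9.33 in 3D and 9.60, 9.63 and 9.78 in 2D. It fell by 22.6% (log2 fold change -0.37, SE 0.04, adjusted p = 4.84e-06), again with no overlap, and its second probe set fell by 0.26. The genes for the parts of 1 module therefore changed in opposite directions.

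The other core subunits did not pass. NDUFS7, which carries the last iron-sulfur cluster before coenzyme Q, had a fold change of -0.08 (adjusted p = 0.0954), although its 6 values of 11.21 to 11.31 in 3D all lay below those of 11.34 to 11.37 in 2D. NDUFS3 had a fold change of 0.07 (adjusted p = 0.220). NDUFS1, the largest core subunit, had 0.08 with an SE of 0.09 (adjusted p = 0.485), and levels of 11.05 to 11.33 in 3D and 10.91 to 11.47 in 2D. Of the 6 core genes measured, 1 rose (16.7%), 2 fell (33.3%) and 3 did not pass.

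Of the 26 accessory subunits of complex I, 2 rose (7.69%), 10 fell (38.5%) and 14 did not pass, with a median of -0.09. These subunits surround the core and are needed to build and hold it together. NDUFA12, which takes part late in building the matrix arm, had levels of 12.14, 12.29 and 12.33 in 3D and 12.41, 12.52 and 12.60 in 2D. All 3D arrays lay below the 2D arrays, and NDUFA12 fell by 0.25 on the log2 scale (SE 0.05, adjusted p = 6.02e-04).

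The rest of the accessory subunits that fell did so by smaller amounts. NDUFA3 fell by 0.18, NDUFA10 by 0.17, NDUFA9 by 0.16 and NDUFA2 by 0.15 on the log2 scale, each with no overlap between the groups. NDUFA6 fell by 0.17, NDUFS4 by 0.14, NDUFA7 by 0.14 and NDUFS5 by 0.12, each with overlapping groups and adjusted p values of 0.0207 to 0.0336. Second probe sets of NDUFA3 and NDUFA9 fell too, by 0.22 and 0.20. Those of NDUFA10 (-0.08), NDUFA2 (-0.07), NDUFA7 (-0.03), NDUFS4 (-0.08) and NDUFS5 (-0.14) did not pass (adjusted p = 0.08125 to 0.5715). The dimmer probe sets of NDUFA6 (-0.23 and -0.12) did not pass either. NDUFS4 lost its call without 2D replicate 2 or 5 or 3D replicate 1, 3 or 4 (adjusted p = 0.0559 to 0.0659), and NDUFA7 without 2D replicate 5 or 3D replicate 1 or 3 (0.0518 to 0.0553). NDUFS5 lost its call without 2D replicate 2, 3, 4 or 5 or 3D replicate 1, 3 or 4 (0.0542 to 0.0784). With each array centred on its median NDUFS4, NDUFS5, NDUFA6 and NDUFA7 did not pass (0.0533 to 0.106). With the RNA control ratio as a covariate none of these 8 genes passed. Their fold changes in that fit were -0.16 for NDUFA3, -0.09 for NDUFA10, -0.15 for NDUFA9, -0.12 for NDUFA2, -0.03 for NDUFA6, -0.06 for NDUFS4, -0.08 for NDUFA7 and -0.11 for NDUFS5. NDUFS4 is known from Leigh syndrome, an inherited disease of complex I failure.

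Both NDUFC genes, which encode accessory proteins of the membrane arm, rose. NDUFC2 had levels of 10.67, 10.75 and 10.78 in 3D and 10.21, 10.48 and 10.60 in 2D, so the lowest 3D array lay above the highest 2D array. It rose by 21.1% (log2 fold change 0.28, SE 0.06, adjusted p = 0.00176), and 2D replicate 1 was the lowest of its group. A dimmer second probe set of NDUFC2, with a mean of 6.00 in 3D and 5.98 in 2D, did not pass, with a fold change of 0.01.

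NDUFC1 had levels of 11.27, 11.37 and 11.43 in 3D and 11.03, 11.21 and 11.24 in 2D. It rose by 14.0% (log2 fold change 0.19, SE 0.05, adjusted p = 0.00577), and the groups did not overlap. A second probe set rose by 0.18, and another at background had a fold change of -0.12. With the RNA control ratio as a covariate, NDUFC2 had a fold change of 0.28 (adjusted p = 0.0557), NDUFV2 0.18 (0.0915) and NDUFC1 0.15 (0.209), and none of them passed. In the same fit NDUFS8, NDUFV3, NDUFA12 and NDUFV1 still passed, with -0.39, -0.37, -0.26 and -0.27.

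The accessory subunits that did not pass included NDUFA13, also known as GRIM-19. Its levels were 12.41 to 12.50 in 3D and 12.40 to 12.50 in 2D, and its fold change was 0.02 with a 95% interval of -0.06 to 0.11. NDUFA5, NDUFA8, NDUFB3, NDUFB4, NDUFB5, NDUFB7, NDUFB9, NDUFB10, NDUFB11 and NDUFS6 had fold changes between -0.08 and 0.08. NDUFB6, NDUFA11 and NDUFB8 lay at -0.12, -0.11 and -0.10, with adjusted p values of 0.0573 to 0.0678. Without 2D replicate 1 NDUFB6 fell by 0.14 and NDUFA11 by 0.12, with adjusted p values of 0.0375 and 0.0374.

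**Figure D4:**
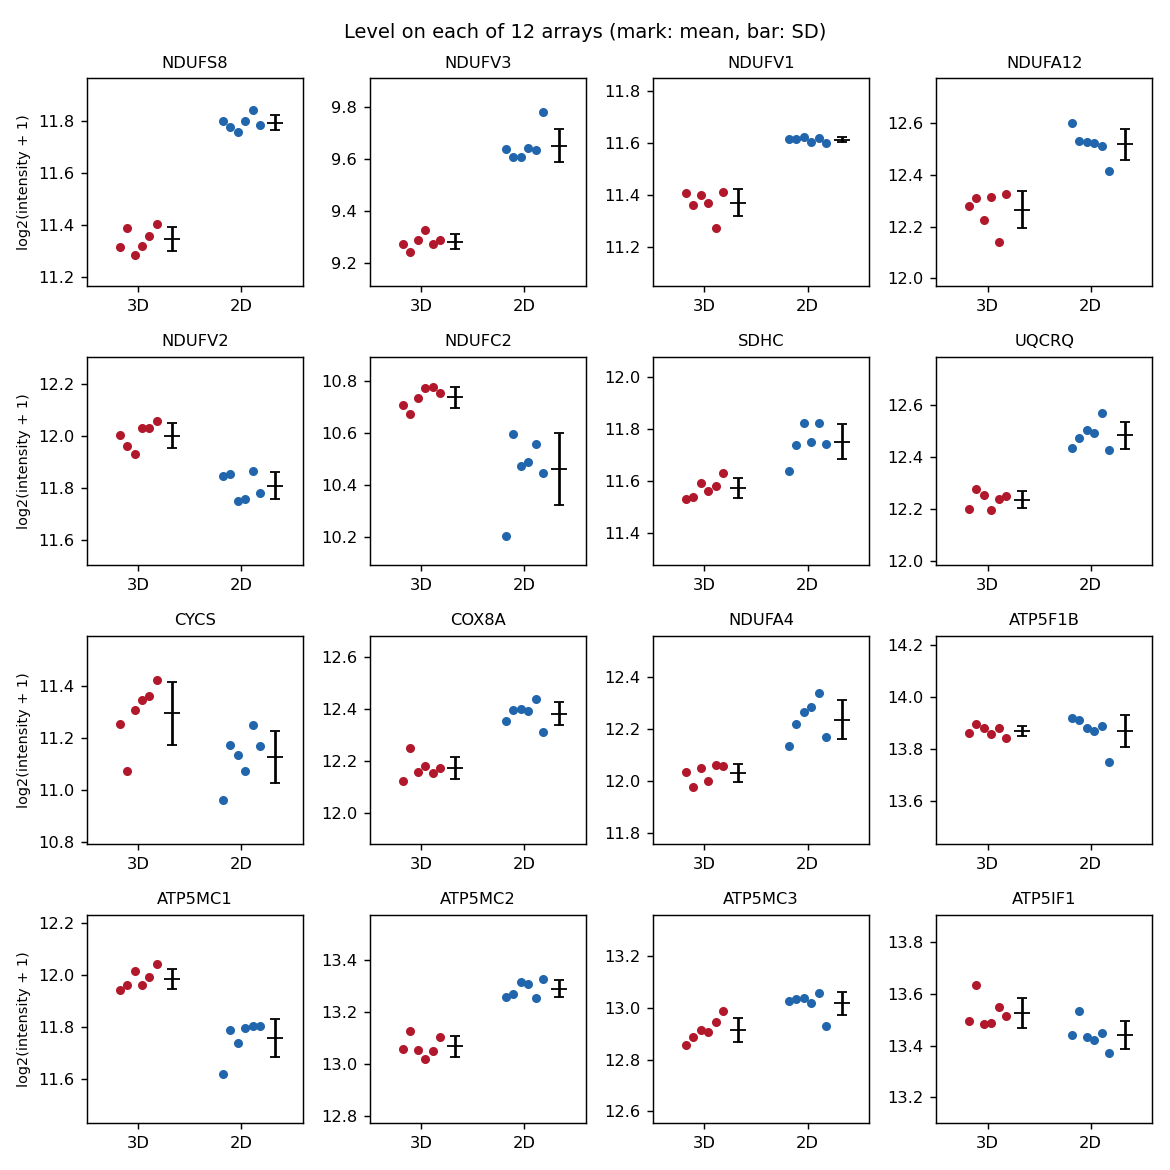
Log2(intensity + 1) on each array (points), with the mean and SD beside them, for 16 members, 3D left of 2D. Every panel spans 0.8 on the vertical axis. The 3D values of NDUFS8, NDUFV3, NDUFV1, NDUFA12, SDHC, UQCRQ, COX8A, NDUFA4 and ATP5MC2 lie wholly below the 2D values, those of NDUFV2, NDUFC2 and ATP5MC1 wholly above, and those of CYCS, ATP5F1B, ATP5MC3 and ATP5IF1 overlap.

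Complex II, which is also the succinate dehydrogenase of the tricarboxylic acid cycle, differed in 1 of its 4 subunits. SDHC, a membrane anchor, had levels of 11.53, 11.57 and 11.63 in 3D and 11.64, 11.75 and 11.82 in 2D. The groups just failed to overlap, and SDHC fell by 11.7% (log2 fold change -0.18, SE 0.04, adjusted p = 0.00486), as did its other probe sets, by 0.18 and 0.25. With the RNA control ratio as a covariate its fold change was -0.19, with an adjusted p of 0.0932.

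The other members of complex II did not pass. SDHA, the flavoprotein that oxidises succinate, had a fold change of -0.02 with a 95% interval of -0.10 to 0.06. SDHB, the iron-sulfur subunit, had -0.08 (adjusted p = 0.211), and SDHD, the partner of SDHC in the membrane anchor, had 0.06 (adjusted p = 0.381). SDHD had levels of 10.18, 10.36 and 10.40 in 3D and 10.20, 10.29 and 10.39 in 2D, which overlapped across nearly their whole range.

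In complex III, UQCRQ, a small subunit of the membrane part, changed most. Its levels were 12.20, 12.25 and 12.28 in 3D and 12.43, 12.48 and 12.57 in 2D. It fell by 15.7% (log2 fold change -0.25, SE 0.04, adjusted p = 2.15e-04) with no overlap, and its second probe set fell by 0.27. It passed with the RNA control ratio as a covariate as well.

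UQCRC2, one of the core proteins of the matrix side, had levels of 10.26, 10.34 and 10.40 in 3D and 10.42, 10.49 and 10.60 in 2D. It fell by 10.7% (log2 fold change -0.16, SE 0.04, adjusted p = 0.00881), and with the ratio as a covariate its fold change was -0.09 (adjusted p = 0.434). A dimmer probe set of UQCRC2, with a mean of 6.65 in 3D and 6.95 in 2D, had -0.30 (adjusted p = 0.0163). Its remaining probe sets, at background, had -0.09 and 0.02 and did not pass. UQCRC1, the partner of UQCRC2, had a fold change of -0.07 and did not pass (adjusted p = 0.192).

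The electron-carrying subunits of complex III did not pass. CYC1, cytochrome c1, had a fold change of 0.06 (95% interval -0.03 to 0.14), and UQCRFS1, the Rieske iron-sulfur protein, had -0.04 (95% interval -0.14 to 0.06). UQCRH, the hinge protein at the cytochrome c1 side, had levels of 13.71, 13.73 and 13.76 in 3D and 13.67, 13.84 and 13.86 in 2D. In 2D replicate 6 UQCRH was far below the rest of its group. Without that array its fold change was -0.12 with an adjusted p of 0.0289, against -0.09 and 0.128 with it. Other probe sets of UQCRH fell by 0.20 (adjusted p = 0.0032) and 0.27 (0.0046), and another had -0.12 and did not pass (0.05515). Averaged over its probe sets, UQCRH had a fold change of -0.17 (adjusted p = 0.00118). UQCR10 and UQCR11, further small subunits, had 0.04 and 0.07 and did not pass.

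CYCS, cytochrome c itself, the mobile carrier between complexes III and IV, had levels of 11.07, 11.33 and 11.42 in 3D and 10.96, 11.15 and 11.25 in 2D. The groups overlapped, and CYCS rose by 12.3% (log2 fold change 0.17, SE 0.06, adjusted p = 0.0463). A second probe set of CYCS, with levels of 10.12, 10.42 and 10.62 in 3D and 10.00, 10.13 and 10.22 in 2D, rose by 0.28 (adjusted p = 0.00769). The call on the first probe set was marginal. It was lost on leaving out any array other than 2D replicate 5 or 3D replicate 2 (adjusted p = 0.0522 to 0.103), and with the RNA control ratio as a covariate, where the fold change was 0.08 (adjusted p = 0.661).

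Complex IV, cytochrome c oxidase, had 3 genes that fell and 0 that rose. COX8A, a small membrane subunit in the form common to most tissues, had levels of 12.12, 12.16 and 12.25 in 3D and 12.31, 12.39 and 12.44 in 2D. It fell by 13.6% (log2 fold change -0.21, SE 0.04, adjusted p = 8.81e-04) without overlap, and all 4 of its probe sets fell.

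NDUFA4 had levels of 11.98, 12.04 and 12.06 in 3D and 12.14, 12.24 and 12.34 in 2D, with no overlap. It fell by 13.2% (log2 fold change -0.20, SE 0.05, adjusted p = 0.00221). Its second probe set had levels of 10.82, 11.00 and 11.09 in 3D and 11.14, 11.43 and 11.58 in 2D and fell by 0.42 (adjusted p = 1.23e-04). With the RNA control ratio as a covariate COX8A had a fold change of -0.16 (adjusted p = 0.120) and the first probe set of NDUFA4 -0.20 (adjusted p = 0.0786).

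COX7A2L, which joins complexes III and IV into larger assemblies, had levels of 10.60, 10.71 and 10.85 in 3D and 10.79, 10.90 and 10.96 in 2D. It fell by 11.9% (log2 fold change -0.18, SE 0.05, adjusted p = 0.00917), although the groups overlapped through 2D replicate 1, the lowest of its group. A second probe set of COX7A2L, with a mean of 10.47 in 3D and 10.57 in 2D, had -0.10 and did not pass (adjusted p = 0.307). COX4I1, the common form of the subunit that regulates the enzyme, had a fold change of -0.05 (95% interval -0.14 to 0.04), and COX5B, which binds zinc, had 0.07 (95% interval -0.02 to 0.15).

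None of the 4 tissue-restricted or oxygen-responsive forms passed. COX4I2, the form of subunit 4 known from lung and from low oxygen, had levels of 6.61, 6.80 and 7.13 in 3D and 6.91, 6.98 and 7.12 in 2D, and a fold change of -0.17 (adjusted p = 0.0738). Without 3D replicate 2, the highest of its group, COX4I2 had -0.23 with an adjusted p of 0.00558, while its second probe set rose by 0.17 (adjusted p = 0.0137), so its probe sets do not settle a direction. NDUFA4L2, which low oxygen is known to induce in other cells, had levels of 6.01, 6.07 and 6.26 in 3D and 6.12, 6.27 and 6.37 in 2D, and a fold change of -0.14 (adjusted p = 0.0746). Without 2D replicate 6 its adjusted p was 0.0371, and without 3D replicate 6 it was 0.0410. COX6A2 and COX7A1, the heart and muscle forms, had -0.04 and -0.03.

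In the ATP synthase, 1 gene rose and 1 fell, both of the ATP5MC family. The ATP5MC genes encode the same mature protein, subunit c, of which the proton-driven ring is built, and differ in the leader peptide that is removed after import. ATP5MC1 had levels of 11.94, 11.98 and 12.04 in 3D and 11.62, 11.79 and 11.80 in 2D, and ATP5MC2 had levels of 13.02, 13.06 and 13.13 in 3D and 13.25, 13.29 and 13.33 in 2D. In ATP5MC1 every 3D array lay above every 2D array, and in ATP5MC2 every 3D array lay below.

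ATP5MC1 rose by 17.1% (log2 fold change 0.23, SE 0.05, adjusted p = 9.43e-04), and ATP5MC2 fell by 14.2% (log2 fold change -0.22, SE 0.04, adjusted p = 4.27e-04). ATP5MC3 had levels of 12.86, 12.91 and 12.99 in 3D and 12.93, 13.03 and 13.06 in 2D, and its fold change of -0.10 did not pass (adjusted p = 0.0676). Without 2D replicate 6, the lowest of its group, ATP5MC3 fell by 0.12 (adjusted p = 0.0360). Each is measured by 1 probe set that can hybridise with related sequences, so which gene of the family a probe set reads is uncertain. With the RNA control ratio as a covariate ATP5MC1 had a fold change of 0.25 and passed, and ATP5MC2 had -0.19 and did not (adjusted p = 0.0528).

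The catalytic head of the ATP synthase showed no change that passed in the main fit. ATP5F1B, the beta subunit that forms ATP, had levels of 13.84, 13.87 and 13.90 in 3D and 13.75, 13.88 and 13.92 in 2D. Its fold change was 0.00016, with a 95% interval of -0.09 to 0.09. ATP5F1A, the alpha subunit, had -0.07 (adjusted p = 0.233). Averaged over its probe sets ATP5F1A had -0.10 (adjusted p = 0.0207), and under quantile normalization -0.11 (adjusted p = 0.0498). ATP5F1C, the gamma subunit of the central stalk, had 0.01, and ATP5F1D, the delta subunit, had -0.21 with an SE of 0.08 (adjusted p = 0.0571). In 2D replicate 6 ATP5F1D stood at 11.29, against 10.70 to 10.85 on the other 2D arrays, and without that array its fold change was -0.13 (adjusted p = 0.0729). Without 2D replicate 1 it was -0.24 (adjusted p = 0.0395). The stalk protein ATP5PO had -0.09 and the small membrane subunit ATP5J2 had -0.03, and neither passed.

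ATP5IF1, the inhibitor that stops the enzyme from running backwards, had levels of 13.48, 13.50 and 13.63 in 3D and 13.37, 13.44 and 13.53 in 2D. Its fold change of 0.09 did not pass (adjusted p = 0.136), yet its other probe sets rose by 0.12 (adjusted p = 0.0325) and 0.25 (adjusted p = 2.30e-04), each without overlap. Averaged over its probe sets, ATP5IF1 had a fold change of 0.15 (adjusted p = 0.00211).

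Of the 64 genes, 25 had 1 probe set and 39 had several. The 57 probe sets that did not stand for their gene had the sign of the standing one in 48 cases, and in 45 of the 52 that lay above background on some array. For 10 genes every one of several probe sets passed in 1 direction, and no gene had probe sets that passed in opposite directions. For 8 genes, NDUFB6, NDUFB9, NDUFS1, UQCRH, UQCR11, COX4I1, COX4I2 and ATP5IF1, only a probe set that did not stand for the gene passed, and in NDUFS1, UQCR11 and COX4I2 it had the opposite sign. These genes were singled out after their values were seen.

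**Figure D5:**
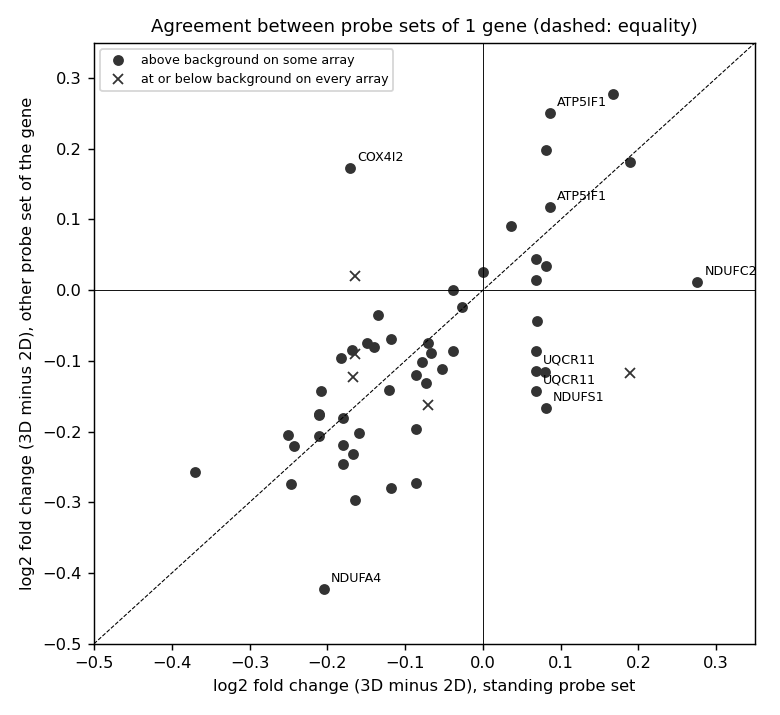
Log2 fold change, 3D minus 2D, of each of the 57 other probe sets of a member (vertical axis) against that of the probe set standing for the gene (horizontal axis), with equality dashed and crosses for probe sets at or below background on every array. Of the 57, 48 lie in quadrants of equal sign, while COX4I2, NDUFS1 and UQCR11 lie in quadrants of opposite sign.

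Genes that build, feed or regulate the chain were listed as well. Over 126 such genes that are not members, 37 rose (29.4%) and 21 fell (16.7%), with 68 not passing. Over all genes 19.8% rose and 22.9% fell, and over genes with a mean level above 10, 32.4% and 26.9%. The median level of the 126 genes was 9.20, against 7.06 for all genes. The split between rises and falls depended on the scaling, since under quantile normalization 30 rose and 39 fell. In that fit 17.4% of all genes rose and 22.4% fell, and 27.5% and 34.3% of those with a mean level above 10. Each list below is to be read against the shares of the main fit, and each holds few genes. The genes named below were chosen by size of change among those that passed.

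Complex I assembly factors, which put the subunits together and are not part of the finished enzyme, changed in both directions. Of 16, 6 rose (37.5%) and 6 fell (37.5%). DMAC1 fell by 0.36 and NDUFAF2, which stands in for NDUFA12 during assembly, fell by 0.30, while NDUFAF7, a methyltransferase that acts on a core subunit, rose by 0.31. NDUFAF2 had levels of 10.28, 10.32 and 10.45 in 3D and 10.55, 10.66 and 10.75 in 2D, all lower in 3D, like those of NDUFA12.

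Of 9 assembly factors of complexes II and III, 0 rose and 2 fell (22.2%). UQCC3 fell by 0.32, and BCS1L, which inserts the Rieske protein, fell by 0.12, a call that was lost on leaving out any of 9 arrays, all but 2D replicate 5, 3D replicate 2 and 3D replicate 3 (adjusted p = 0.0519 to 0.0967). Of 15 assembly factors of complex IV, 6 rose (40%) and 3 fell (20%). CMC1 rose by 0.49 and COX20 by 0.34, while COX11, which delivers copper, fell by 0.47.

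COX11 had levels of 9.19, 9.27 and 9.32 in 3D and 9.59, 9.74 and 9.81 in 2D, with no overlap. Of 5 ATP synthase assembly factors, 1 rose (20%) and 1 fell (20%). ATPAF2, a chaperone of the alpha subunit, rose by 0.45 and FMC1 fell by 0.37. Of 14 genes of coenzyme Q synthesis and cytochrome c maturation, 1 rose (7.14%) and 3 fell (21.4%).

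COQ7, the hydroxylase near the end of coenzyme Q synthesis, changed most of all the listed genes. Its levels were 7.28, 7.35 and 7.55 in 3D and 7.91, 8.08 and 8.17 in 2D, and it fell by 0.69 (SE 0.06, adjusted p = 8.98e-08). COQ6, another hydroxylase of that route, rose by 0.26, and COQ10A, which binds coenzyme Q, fell by 0.26.

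Of 12 tricarboxylic acid cycle enzymes, which feed complexes I and II, 5 rose (41.7%) and 0 fell. The shares among genes with a mean level above 10 were 32.4% and 26.9%. IDH2 had levels of 12.50, 12.58 and 12.61 in 3D and 12.15, 12.25 and 12.33 in 2D and rose by 0.32. FH rose by 0.28 and SUCLG2 by 0.26, and in all of these the groups did not overlap.

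Of 8 genes of mitochondrial DNA upkeep and transcription, 3 rose (37.5%) and 0 fell. TFB1M, which methylates the mitochondrial ribosomal RNA, rose by 0.52, POLG2, the accessory subunit of the mitochondrial DNA polymerase, rose by 0.34, and TEFM, an elongation factor, rose by 0.21. Of 16 regulators of mitochondrial biogenesis, 3 rose (18.8%) and 2 fell (12.5%). Among those that did not pass, ESRRB and ESRRG lay at or below background on every array, and PPARGC1A did so on every 2D array. MYC rose by 0.68, PRKAA2, a catalytic subunit of the energy sensor AMPK, fell by 0.52, and NFE2L2 fell by 0.35.

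Of 21 genes of mitochondrial import, porins and cristae, 8 rose (38.1%) and 2 fell (9.52%). LETM1, an ion exchanger of the inner membrane, rose by 0.41 and PHB, prohibitin, rose by 0.30, while CHCHD3, part of the complex that shapes cristae, fell by 0.34. LETM1 lay near background, with a mean of 6.41 in 3D and 6.00 in 2D, and its groups overlapped. Of 12 genes of oxygen-dependent remodelling, which include COX4I2 and NDUFA4L2, 4 rose (33.3%) and 2 fell (16.7%). BNIP3L, a receptor for removal of mitochondria, had levels of 10.08, 10.29 and 10.35 in 3D and 9.51, 9.66 and 9.76 in 2D and rose by 0.61.

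LONP1, the matrix protease known to degrade COX4I1 in low oxygen, rose by 0.41, and PDK1, the kinase that holds back pyruvate dehydrogenase, rose by 0.34. With the RNA control ratio as a covariate, 7 of the listed genes named here did not pass. Their fold changes in that fit were 0.31 for NDUFAF7, -0.26 for DMAC1, -0.10 for BCS1L, -0.20 for COQ10A, 0.16 for TEFM, 0.30 for LETM1 and 0.16 for PHB.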

How the data were processed

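The authors deposited 1 linear intensity per probe set and array for 12 one-colour Affymetrix dog arrays, and GCRMA is named without a version in the submitters' processing notes. Of the background model and of scaling after it, nothing is given in the sources used here. Depth has no meaning for arrays, and their number, 6 per group, limits the precision. Here 111 control probe sets were left out, a pseudocount of 1 was added, and the log2 values went through limma 3.58.1 (lmFit, then eBayes; R 4.3.3) with culture as the only term. Adjusted p-values are Benjamini-Hochberg over 42924 probe sets at a threshold of 0.05. Of these, 29254 named 1 gene in the platform annotation, 439 several and 13231 none, and only the first were used for genes. Of 121 member probe sets, 118 had a gene ID found in RefSeq, which changed 0 symbols. Among them 68 carry the suffix _s_at or _x_at and can read related sequences. The RNA control ratio is the mean over 4 probe set pairs. The calculation was tested on simulated data. Python 3.11.15 and matplotlib 3.10.9 drew the figures.

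Named genes were, per complex, up to 3 with the largest rise and up to 3 with the largest fall among those that passed, the member with the highest mean, up to 3 that passed of each other list, and subunits fixed by name. Further members are named to account for all 64. Members, lists and tests were chosen with earlier results of these data known. The alternatives were quantile normalization, median centring, a pseudocount of 16, a filter at a log2 value of 6 on 6 arrays, a trended robust prior, weights per array, a block for the replicate number, the RNA control ratio as a covariate, each array left out, a pair of arrays left out, and the mean over a gene's probe sets. Leaving out 2D replicate 1 with 3D replicate 2 was added after seeing the data. Replicate numbers are shared by the groups, but the deviations of same-numbered arrays correlated at 0.0008 to 0.3602, so the numbers were not taken to pair the samples.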

Additional observations from a re-analysis of the deposited data

Results flagged for a closer look

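Of 184 groups of 6 arrays looked at, over 92 genes, 17 had 1 array that stood apart from the others by more than Dixon's critical value of 0.625, and chance flags about 1 in 20 groups. Of these arrays 6 were 2D replicate 6, 4 were 2D replicate 1 and 4 were 3D replicate 2. In 2D replicate 6, NDUFV3 was highest at 9.7775 against 9.6046 to 9.6395 on the other arrays of its group, CYC1 was highest at 10.6188 against 10.4588 to 10.5037, and ATP5F1D was highest at 11.2854 against 10.7039 to 10.8519. On the same array UQCRH was lowest at 13.6715 against 13.8329 to 13.8599, ATP5F1B was lowest at 13.7499 against 13.8708 to 13.9179, and ATP5MC3 was lowest at 12.9283 against 13.0169 to 13.0561. In 2D replicate 1, COX7A2L was lowest at 10.7901 against 10.8992 to 10.9607, ATP5MC1 was lowest at 11.619 against 11.7379 to 11.8046, UQCR10 was lowest at 11.9005 against 11.997 to 12.0394, and FH was highest at 11.2127 against 11.0271 to 11.0608. NDUFV1 was lowest in 3D replicate 5, at 11.2727 against 11.3605 to 11.4125. In 3D replicate 2, SDHD was lowest at 10.1816 against 10.3278 to 10.3994, NDUFS3 was lowest at 10.6921 against 10.7988 to 10.8503, NDUFS6 was lowest at 11.2549 against 11.3088 to 11.3394, and ATP5J2 was highest at 12.4404 against 12.3066 to 12.3478. NDUFA11 was lowest in 3D replicate 1, at 11.334 against 11.4203 to 11.4695. COQ10A was lowest in 2D replicate 2, at 8.0007 against 8.2941 to 8.4432.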

How the results depend on the processing

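The RNA control ratio as a covariate lowered the counts most. With it 3 member probe sets rose and 15 fell, 1 member gene rose and 6 fell, and 22 genes of the other lists rose. In that fit 12.6% of all genes rose and 8.33% fell. Quantile normalization gave 30 member genes that fell and 39 of the other lists that fell, where 22.4% of all genes fell. The cause was not tested for either setting. Under all 23 alternatives 7 member genes passed in 1 direction. The share of all genes that did so is not given here, so this count cannot be set against the rest of the array. NDUFS8, NDUFV3, NDUFA12, NDUFV1, UQCRQ and COX7A2L fell and ATP5MC1 rose, and no gene called in the main comparison changed sign. Leaving out 1 array gave 7 to 11 member probe sets that rose and 34 to 42 that fell. By gene, 4 to 5 members rose (6.25% to 7.81%) and 16 to 22 fell (25% to 34.4%). In these fits 18.1% to 21.2% of all genes rose and 18.4% to 26.1% fell. Among the other lists 35 to 44 genes rose and 19 to 25 fell. The difference in the RNA control ratio was 0.3357 to 0.4396. With the replicate number as a block, 5 member genes rose and 19 fell, 18 of them shared with the fit without the block, and 1 of 6 arrays of 3D correlated best with the 2D array of its own number. The block ended the calls of BCS1L (adjusted p = 0.0702) and NDUFS5 (0.0582), and ATP5F1D passed with it (0.0196). Median centring ended the calls of BCS1L (0.110), NDUFS4 (0.0754), NDUFS5 (0.106), NDUFA6 (0.0533) and NDUFA7 (0.0854). Quantile normalization ended those of CYCS (0.165) and TEFM (0.0898), and the mean over probe sets those of NDUFC1 (0.0901), NDUFA7 (0.0835) and BCS1L (0.211). Over all named genes and alternatives, 1984 values kept their side of the threshold, 70 lost the call and 62 gained it. Signal over background limits the members COX4I2, COX6A2, COX7A1 and NDUFA4L2, and LETM1 of the other lists, which lie near it. Listed genes that did not pass lay near or below it too, among them PPARGC1A, ESRRB, ESRRG, EPAS1, BNIP3, NRF1, ATPAF1 and COX10.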
